A study of Canis lupus familiaris with 16 samples.

Results

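Atypical meningiomas of the dog that had been fixed in formalin and embedded in paraffin were compared by RNAseq with normal meninges. The meningioma group held 5 libraries (P8, P9, P10, P11 and P13), each from a grade II tumor of the atypical subtype in 1 pet dog, and the control group held 3 libraries (N1, N2 and N3) of leptomeninges from healthy research beagles, out of 16 libraries in the series. Per the paper, the tumors came from older dogs of several breeds (Shetland sheepdog, corgi, Labrador retriever and mixed breed) and both sexes. The meninges were collected over the cerebral cortex and flash-frozen, with RNA from Trizol instead of a kit for paraffin blocks. Whether any dog had been treated before sampling is not given in the paper. Each library was a different dog, so the replicates were biological. Tumor, fixation, extraction and breed therefore changed together between the groups and cannot be told apart in the comparison with normal meninges, and the age of the beagles is not given in the sources used here. Per the paper 2 further grade II tumors (P7 and P12) were frozen, although the labels describe every tumor as fixed. They were left out of the meningioma group and are used beside it, with 4 identified grade I tumors (P2, P3, P4 and P6) that were fixed in formalin.

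The deposited table numbers its libraries without naming the dogs. Each library was paired with a sample by its FPKM (fragments scaled by transcript length and library size) for 12 genes that the study lists per sample, and in every one of the 14 paired samples all 12 values matched exactly 1 library and at most 1 value matched any other. Fragments on genes were 2138741 (P11) to 6346425 (P9) in the 5 meningiomas and 2269204 to 7054614 in the normal meninges. Symbols were available for 124 Ensembl identifiers, 41 that the study listed as higher and 83 as lower in its meningiomas, and other genes were used by identifier. Podoplanin (PDPN) was the only arachnoid marker with a symbol, and it was detected in all 8 libraries, at 47.5 to 237.0 FPKM against 16.9 to 44.6 FPKM in the normal meninges. Markers of neurons, glia, leukocytes, blood and dividing cells were not analysed here because the table gives no symbols for them.

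Arachnoid cap cells, from which meningiomas develop, form a flat, epithelium-like sheet joined by desmosomes and gap junctions. Normal leptomeninges hold, beside these cells, fibroblasts with their collagen matrix and a rich net of vessels lined by endothelium and wrapped by smooth muscle and pericytes. Atypical tumors are the intermediate grade of the human scheme, and in people they recur more often than the benign grade after surgery. Per the paper, whether this scheme fits the dog is unclear.

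Among the genes that the study listed as changed, most vessel and matrix genes were lower in formalin-fixed grade II meningiomas than in normal meninges. Genes of WNT signalling went both ways, with FRZB, SFRP1, CPZ and DAAM2 lower and DACT2 and WNT5A higher. Those of epithelial-type surface proteins, NEAT1 and transcription factors such as KLF5 and MYC were also higher. A gene is called here where its Benjamini-Hochberg adjusted p in edgeR's quasi-likelihood test was under 0.05. Of 13666 tested genes 862 were called, 290 higher (2.12%) and 572 lower (4.19%), and the median log2 fold change over all tested genes was 0.03. Of the 41 identifiers of the higher list 28 were called higher, and of the 83 of the lower list 76 were called lower, with median log2 fold changes of 2.81 and -2.88. All 124 had the direction of their list. The study chose both lists on meningiomas that include these 5 and on the same normal meninges. The counts are thus not independent evidence of the direction. Each gene group below was drawn from these lists, so its count stands beside 28 of 41 or 76 of 83. The 5 meningiomas all lay above the 3 normal libraries in FPKM for 31 of the 41, against 8.28% of all tested genes, and all lay below them for 82 of the 83, against 10.5%.

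The number of calls rested on the 3 normal libraries. It was 270 without N1, 302 without N2 and 135 without N3 (11 higher and 124 lower), and 577 to 988 when 1 meningioma was left out, with 158 higher without P8 and 167 without P13. DESeq2 called 1881 genes, 905 of them higher. On simulated counts DESeq2 called 60 unchanged genes, against 10 by edgeR, so its larger counts are not equal support. The higher list had 15, 9 and 6 of its 41 identifiers called without N1, N2 and N3, 10 in the fit of 14 libraries, 16 with the frozen tumors added and 37 with DESeq2. The lower list had 61, 64 and 45 of its 83 called without N1, N2 and N3, and 66, 69 and 80 in the other fits in the same order.

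**Figure D1:**
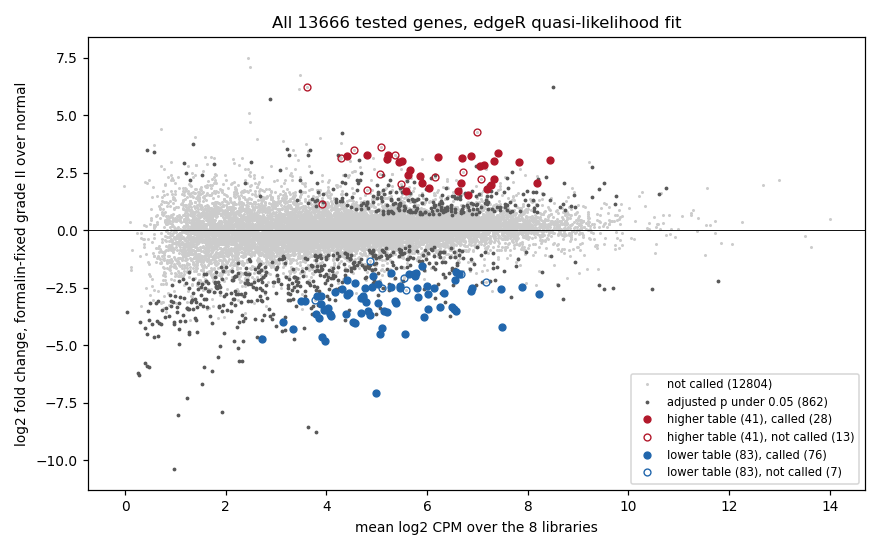
Each point is 1 of 13666 tested genes, with its mean log2 CPM over the 8 libraries on the horizontal axis and its log2 fold change, formalin-fixed grade II over normal meninges, on the vertical axis. Red and blue circles mark the higher and lower lists and are filled where the adjusted p was under 0.05, which held for 28 of 41 and 76 of 83.

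Of the 5 transcription factors of the higher list outside the immediate-early group 4 were called higher, and 2, 1 and 1 of the 5 without N1, N2 and N3. The member that did not pass was MYBL1 (adjusted p = 0.198), named after its values were seen, which lay above the normal libraries in 3 of 5 meningiomas. Values below are in FPKM, given in the order P8, P9, P10, P11 and P13 for the meningiomas and N1, N2 and N3 for the normal meninges. KLF5 (ENSCAFG00000005037), a Krüppel-like factor of proliferating epithelia, was at 121.9, 96.8, 79.7, 158.3 and 126.0 FPKM against 13.7, 12.4 and 8.56. No meningioma came near the normal range, and the log2 fold change was 3.34 ± 0.31 (SE, adjusted p = 0.00103 with edgeR's quasi-likelihood test). It passed in all 8 fits that left out 1 library (highest adjusted p 0.0103). MYC, a driver of cell growth, was at 36.3, 45.5, 104.1, 87.8 and 84.5 FPKM against 24.8, 13.2 and 14.1. P8 and P9 were the lowest of the 5 and still above N1, the highest normal library, and the log2 fold change was 2.04 ± 0.42 (adjusted p = 0.0242). MYC did not pass without N1, N2 or N3 (highest adjusted p 0.141). MYRF, known as the factor of myelin genes in oligodendrocytes, ranged from 19.3 to 46.2 FPKM against 3.06 to 8.32 (adjusted p = 0.0121). MYRF did not pass without N2 or N3 (highest adjusted p 0.0841).

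Of 4 genes of WNT and BMP signalling in the higher list 3 were called. DACT2 (ENSCAFG00000000866), an intracellular modulator of WNT signalling, was at 9.07, 10.5, 16.1, 6.71 and 12 FPKM in the meningiomas and 1.79, 0.780 and 0.657 FPKM in the normal meninges. The groups lay apart and the meningiomas varied little (SD of log2 CPM 0.33). The log2 fold change was 3.24 ± 0.29 (adjusted p = 9.39e-04), and the gene passed in all 8 fits that left out 1 library. WNT5A, a ligand of the noncanonical WNT pathway, was at 34.7, 48.9, 47.3, 114.1 and 27.4 FPKM against 6.44, 5.21 and 11.5. P11 was the highest and P13 the lowest, and none of the 5 reached down to the normal range (log2 fold change 2.82 ± 0.53, adjusted p = 0.0183). It did not pass without N1, N2 or N3 (highest adjusted p 0.0873). BMPER, an extracellular protein that binds BMP ligands, ranged from 9.51 to 32.0 FPKM against 3.83 to 7.20 and was just called (adjusted p = 0.0473). BMPER did not pass without P9, P11, P13, N1, N2 or N3 (highest adjusted p 0.223). BMPR1B, a type I BMP receptor, did not pass (log2 fold change 3.47 ± 1.03, adjusted p = 0.0802). It was at 16.9, 31.3, 9.34, 0.329 and 17.8 FPKM, and only P11 fell below the normal values of 1.22, 2.09 and 0.917 FPKM.

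All 5 genes grouped as epithelial, mesothelial and arachnoid surface genes were called higher, with a median log2 fold change of 2.21. Over the whole higher list 28 of 41 were called, with a median of 2.81. GJB2, the gap junction protein connexin 26, reached 299.3, 274.2, 349.1, 883.8 and 240.7 FPKM against 61.5, 54.0 and 30.7 FPKM. P11 stood well above the other meningiomas, which were close to each other (log2 fold change 3.07 ± 0.53, adjusted p = 0.0137). PERP, a desmosomal membrane protein and target of p53, was at 47.2, 54.6, 48.9, 39.3 and 87.1 FPKM against 15.1, 17.8 and 15.1. Its groups did not overlap, and P13 was the highest (log2 fold change 1.80 ± 0.28, adjusted p = 0.00962). UPK3B, a surface protein of mesothelium and urothelium, ranged from 15.2 to 46.2 FPKM against 1.08 to 4.35. PDPN, a mucin-type glycoprotein of arachnoid cells and lymphatic vessels, had a log2 fold change of 2.21 ± 0.52 (adjusted p = 0.0386), and WFDC2 (spelled WFCD2 in the study's list), a secreted protease inhibitor of epithelia, 1.96 ± 0.46 (adjusted p = 0.0376). The calls in this group rested on the controls, since 1 of the 5 passed without N1, 1 without N2 and 0 without N3. The adjusted p without a single library was at most 0.0876 for GJB2, 0.0761 for PERP, 0.0623 for UPK3B, 0.192 for PDPN and 0.192 for WFDC2, and DESeq2 passed all 5.

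Secreted proteins and proteases were called in 3 of 5 cases. KLKB1, plasma prekallikrein, was at 135.8, 202.0, 124.1, 147.4 and 63.4 FPKM in the meningiomas and 22.3, 14.6 and 9.38 FPKM in the normal meninges. Even P13, the lowest, exceeded N1 (log2 fold change 3.12 ± 0.44, adjusted p = 0.00557). It passed in all 8 fits that left out 1 library (highest adjusted p 0.0401). TF, the iron carrier transferrin, ranged from 69.4 to 324.9 FPKM against 19.3 to 23.3 (adjusted p = 0.0172), with P10 highest. TF did not pass without N1, N2 or N3 (highest adjusted p 0.0989). PAMR1, a secreted protein with a peptidase-like domain, ranged from 63.6 to 258.4 FPKM against 8.11 to 24.9 (adjusted p = 0.0222). PAMR1 did not pass without N2 or N3 (highest adjusted p 0.130). CTSE, the aspartic protease cathepsin E, did not pass (adjusted p = 0.184) and was at 107.0, 381.7, 37.4, 27.7 and 3.11 FPKM against 20.3, 5.15 and 0.952, so that P13 lay within the normal range while P9 lay far above it. COMP, a cartilage matrix protein, ranged from 66.0 to 211.8 FPKM against 7.46 to 54.8 and did not pass either (adjusted p = 0.109).

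Genes of exocytosis and of metabolism were also in the higher list. RIMS1, a scaffold of the presynaptic release site, was at 100.8, 73.3, 103.7, 88.3 and 30.6 FPKM against 11.3, 10.4 and 8.66 (log2 fold change 2.98 ± 0.42, adjusted p = 0.00557). P13 was the lowest meningioma and lay above N1, the highest normal library. It did not pass without N3 (highest adjusted p 0.0525). NOL4, a nucleolar protein, ranged from 9.59 to 34.0 FPKM against 1.60 to 3.88 (adjusted p = 0.0140), and did not pass without N2 or N3 (highest adjusted p 0.0906). CHGA, chromogranin A of secretory granules, did not pass (adjusted p = 0.152), since P10 and P13 stood at 83.9 and 129.5 FPKM and the other 3 meningiomas at 5.66 to 9.50 FPKM, near the normal values of 3.37 to 8.13 FPKM. STXBP6, a syntaxin-binding protein, was at 34.6, 5.47, 1.29, 86.3 and 31.3 FPKM and overlapped the normal values of 8.97, 9.49 and 5.32 FPKM (adjusted p = 0.294). The 4 metabolic identifiers were all called, and 3, 2 and 2 of them passed without N1, N2 and N3. CTPS1, which makes CTP, was at 60.4, 65.2, 67.1, 67.7 and 43.5 FPKM against 23.2, 20.1 and 20.4, a smaller change that varied little (log2 fold change 1.52 ± 0.21, adjusted p = 0.00496). It passed in all 8 fits that left out 1 library (highest adjusted p 0.0492). AMDHD1 of histidine breakdown (3.00 ± 0.42, adjusted p = 0.00557) and the AMP deaminase AMPD3 (3.16 ± 0.52, adjusted p = 0.0114) had larger log2 fold changes, of which AMPD3 did not pass without N2 or N3 (highest adjusted p 0.0751). The fourth identifier carries the symbols ERMP1 and DMXL2 and cannot be given to either, and it did not pass without N1, N2 or N3 (highest adjusted p 0.101).

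NEAT1, the noncoding RNA that scaffolds paraspeckles, had the highest FPKM of the listed transcripts. By fragments it was not the highest, with at most 721 (NEAT1_1) and 635 (NEAT1_2) in any of the 5 meningiomas against 8253 for FOS, since FPKM divides fragments by transcript length. Its identifier NEAT1_1 stood at 14813.1, 18244.7, 29351.7, 15980.7 and 25374.9 FPKM in the meningiomas and 7363.2, 3122.0 and 4644.9 FPKM in the normal meninges, and NEAT1_2 at 9425.9, 8112.4, 6194.6, 4027.7 and 10236.6 against 1964.3, 447.6 and 1871.0. Every meningioma was above every normal library for both identifiers, with log2 fold changes of 2.04 ± 0.36 (adjusted p = 0.0140) and 2.39 ± 0.49 (adjusted p = 0.0245). They name parts of 1 gene, so reads may have been divided between them. Frozen P12 stood at 1948.3 FPKM for NEAT1_1, below the normal range, and frozen P7 at 16955.3 FPKM, within the range of the formalin-fixed tumors. NEAT1_1 did not pass without N2 or N3, and NEAT1_2 not without N1 or N3 (highest adjusted p 0.0930 and 0.101). VWA5A (2.03 ± 0.27, adjusted p = 0.00448), FAM210B (1.70 ± 0.30, adjusted p = 0.0137), MEDAG (3.00 ± 0.69, adjusted p = 0.0364) and ZC2HC1C (3.27 ± 0.81, adjusted p = 0.0473) were the called members of the remaining 6, by log2 fold change. VWA5A varied little, from 182.6 to 339.3 FPKM against 49.7 to 62.0, and passed in every fit that left out 1 library. FAM210B did not pass without N2 or N3 (highest adjusted p 0.0955), and MEDAG not without P8, N1, N2 or N3 (highest adjusted p 0.172). ZC2HC1C passed only in the fit without P10 (highest adjusted p 0.212). It ranged from 7.18 to 110.8 FPKM against 2.34 to 9.37, with P10 inside the normal range.

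Immediate-early genes, which are transcribed within minutes of a stimulus, varied widely among the meningiomas, with an SD of log2 CPM from 1.10 (GEM) to 3.34 (FOSB). Of 6 members GEM alone was called, at 10.9, 37.6, 47.0, 20.9 and 78.8 FPKM against 7.09, 2.79 and 1.95 (log2 fold change 3.28 ± 0.72, adjusted p = 0.0314). It did not pass without P10, N1, N2 or N3 (highest adjusted p 0.155). FOSB, a subunit of AP-1, stood at 7.66, 0.936, 222.8, 0.973 and 39.5 FPKM and FOS at 132.7, 103.5, 822.3, 20.1 and 307.8 FPKM, against normal values of 0.984, 0.850 and 0.323 FPKM and 18.2, 13.8 and 11.3 FPKM. P10 and P13 were high for both genes, and P9 and P11 lay near the normal libraries for FOSB. The log2 fold changes were 6.24 ± 2.08 (adjusted p = 0.110) and 4.28 ± 1.11 (adjusted p = 0.0539), neither of which passed, while DESeq2 gave adjusted p = 0.00186 and 1.59e-05. ZFP36, an RNA-binding protein that destabilizes cytokine transcripts, had 3.26 ± 0.87 (adjusted p = 0.0588). EGR1 and NR4A1, named here after their values were seen, overlapped the normal range, and EGR1 stood at 285.7 FPKM in P10 against 9.39 to 38.4 FPKM in the other meningiomas. The summed FPKM of the 6 genes was 1566.2 in P10, 546.1 in P13, 97.1 to 220.1 in the other meningiomas and 35.2 to 62.8 in the normal meninges. The frozen tumors stood at 1714.4 (P7) and 45.1 (P12).

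**Figure D2:**
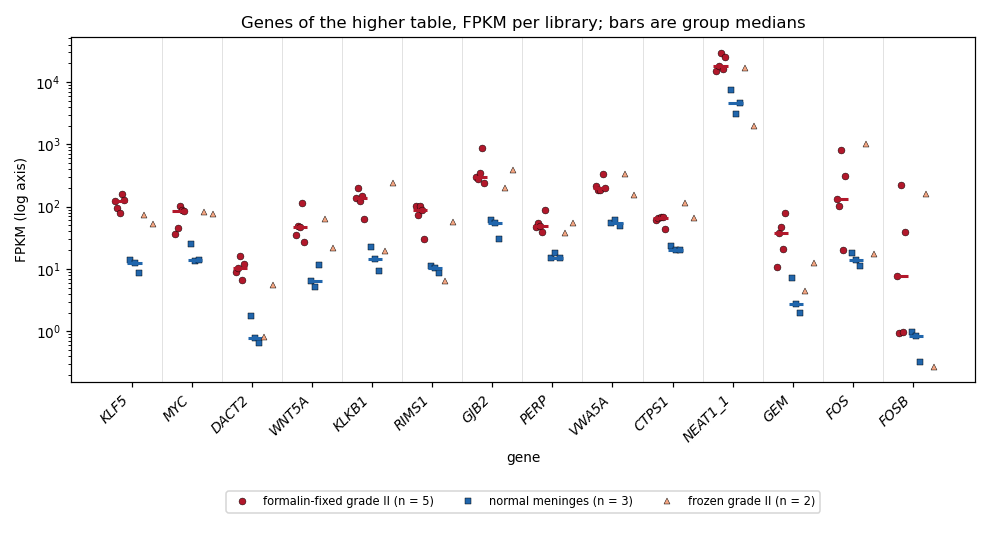
FPKM on a log axis for 14 genes of the higher list, 1 symbol per library for the 5 formalin-fixed grade II meningiomas, the 3 normal meninges and the 2 frozen grade II meningiomas, with group medians as bars. KLF5, DACT2, VWA5A and CTPS1 show narrow, separate groups, while FOS spans 20.1 to 822.3 FPKM and FOSB 0.936 to 222.8 FPKM within the formalin-fixed meningiomas.

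The endothelial group holds 24 genes of the study's lower list, and endothelial genes outside that list were not examined. All 24 were called lower, and the 5 meningiomas lay below the 3 normal libraries for each of them. The median log2 fold change was -2.77 (range -4.65 to -1.80). Over the whole lower list, chosen on meningiomas that include these 5, 76 of 83 were called and the median was -2.88. The endothelial genes were thus not lower than the list they were taken from. MMRN2 (ENSCAFG00000016086), an endothelial matrix protein, was at 1.41, 2.68, 1.28, 1.95 and 1.26 FPKM in the meningiomas and 47.2, 26.2 and 58.1 FPKM in the normal meninges. The highest meningioma was P9 and the lowest normal library N2, and the log2 fold change was -4.65 ± 0.34 (adjusted p = 4.63e-04). PECAM1, the adhesion protein CD31, was at 21.0, 24.5, 14.7, 18.1 and 8.97 FPKM against 188.1, 141.2 and 188.6. P13 was the lowest and all 5 were far below N2 (log2 fold change -3.32 ± 0.30, adjusted p = 9.39e-04). FLT1, a receptor of VEGF, was at 5.82, 9.56, 6.21, 3.98 and 4.47 FPKM against 55.8, 46.5 and 91.6 (log2 fold change -3.41 ± 0.33, adjusted p = 0.00122). TIE1, a receptor tyrosine kinase of endothelium, was at 1.48, 2.53, 1.03, 1.18 and 0.943 FPKM against 17.3, 11.7 and 25.3 (-3.63 ± 0.37, adjusted p = 0.00154). These 4 genes passed in all 8 fits that left out 1 library. Summed over the 24 genes, FPKM was 116.1 to 171.7 FPKM in the meningiomas and 775.6 to 1247.1 FPKM in the normal meninges. No member was at 0 in any of the 8 libraries. In bulk tissue fewer endothelial cells and less RNA per endothelial cell cannot be told apart. Of the 24 calls 15 remained without N3, and 19 to 24 without any other single library.

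Of the lower list's genes of vascular smooth muscle and pericytes 7 of 7 were called, with a median log2 fold change of -3.59. Over the whole lower list 76 of 83 were called, with a median of -2.88. PTGIR, the prostacyclin receptor, was at 0.865, 1.27, 0.866, 0.542 and 0.823 FPKM against 18.9, 10.8 and 13.1. The meningiomas were all near 1 FPKM, and the log2 fold change of -3.98 ± 0.30 (adjusted p = 4.63e-04) was among the 3 with the smallest adjusted p of all listed genes. MYH11, the smooth muscle myosin heavy chain, was at 4.53, 3.80, 3.62, 4.44 and 3.43 FPKM against 76.5, 21.1 and 37.9. It had the smallest spread of the group among the meningiomas (SD of log2 CPM 0.17) and its log2 fold change was -3.51 ± 0.36 (adjusted p = 0.00164). SYNPO2, an actin-binding protein of smooth muscle, (-3.71 ± 0.39, adjusted p = 0.00179) and FHL5, a LIM protein of contractile cells, (-3.83 ± 0.40, adjusted p = 0.00179) fell to a like extent. Summed over the 7 genes, FPKM was 15.3 to 38.4 FPKM in the meningiomas and 141.7 to 345.9 FPKM in the normal meninges. Between 6 and 7 of the 7 passed when any single library was left out.

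The matrix genes of the lower list were called lower in 13 of 16 cases, and all 16 lay below the normal libraries in each meningioma. Over the whole lower list 76 of 83 were called and 82 of 83 lay below. COL14A1, a collagen of fibril surfaces, was at 2.15, 2.79, 1.64, 0.950 and 0.986 FPKM against 23.4, 43.6 and 51.1 (log2 fold change -4.51 ± 0.41, adjusted p = 9.39e-04). Its highest meningioma, P9, was still far below N1. OLFML3, a secreted glycoprotein, was at 3.71, 9.35, 5.95, 14.2 and 3.51 FPKM against 97.3, 80.4 and 104.2 (-3.69 ± 0.43, adjusted p = 0.00251), COL16A1 ranged from 2.87 to 5.14 FPKM against 24.2 to 58.9 (-3.08 ± 0.33, adjusted p = 0.00183) and TINAGL1 from 2.44 to 4.61 FPKM against 18.6 to 55.8 (-3.37 ± 0.36, adjusted p = 0.00179). FBLN2, the basement membrane protein fibulin 2, did not pass (log2 fold change -2.26 ± 0.66, adjusted p = 0.0787). P10 and P13 stood at 32.8 and 51.1 FPKM and the other meningiomas at 6.51 to 8.80 FPKM, all below the normal values of 142.1, 97.5 and 86.7 FPKM. The members that did not pass with it were TLL1 (adjusted p = 0.0528) and CCDC80 (adjusted p = 0.0667), named after their values were seen. Normal library N1 stood apart for THBS1, COL8A1 and CILP2, also named after their values were seen, with 831.7, 241.9 and 96.1 FPKM, while N2 and N3 had 119.9 and 130.5, 49.4 and 40.8, and 14.7 and 14.9. COL8A1 did not pass without N1 or N3 (highest adjusted p 0.0865). Without N3 8 of the 16 passed, and without any other single library 10 to 13. The endothelial and mural lists fell beside the matrix list in the same libraries, and their part in it was not tested.

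The lower list also held 4 modulators of WNT signalling, all called, beside 76 of 83 of the whole list. Their median log2 fold change was -3.31, beside -2.88 for the whole list. FRZB, a secreted frizzled-related protein that binds WNT ligands, was at 12.6, 12.7, 3.73, 17.0 and 5.85 FPKM against 124.4, 95.2 and 115.7. The 5 meningiomas were spread between P10 and P11 but stayed below N2 (log2 fold change -3.45 ± 0.41, adjusted p = 0.00276). SFRP1, another of these inhibitors, was at 5.08, 3.45, 6.37, 3.34 and 2.06 FPKM against 52.7, 29.6 and 35.5 (-3.10 ± 0.42, adjusted p = 0.00479). Both passed in all 8 fits that left out 1 library. CPZ, a carboxypeptidase with a frizzled-like domain, ranged from 4.03 to 20.6 FPKM against 35.7 to 138.1 (-3.50 ± 0.61, adjusted p = 0.0140), and DAAM2, a formin of the WNT pathway, from 1.65 to 9.48 FPKM against 31.1 to 63.7 (-3.16 ± 0.56, adjusted p = 0.0142). CPZ did not pass without N2 or N3 (highest adjusted p 0.0745). DAAM2 did not pass without N1 or N3 (highest adjusted p 0.0629).

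Growth-signal genes were called lower in 6 of 7 cases, beside 76 of 83 of the whole lower list. KITLG (ENSCAFG00000006091), the ligand of the receptor KIT, was at 2.31, 2.51, 1.24, 2.37 and 1.5 FPKM against 68.4, 32.5 and 35.1. All 5 meningiomas were low and close to each other, and the log2 fold change was -4.51 ± 0.34 (adjusted p = 4.63e-04). PDGFRL, a secreted protein resembling the PDGF receptor, was at 11.9, 23.0, 24.0, 7.42 and 27.7 FPKM against 129.3, 130.6 and 127.7, where the normal libraries were nearly level (-2.76 ± 0.38, adjusted p = 0.00510). PIK3R1, the regulatory subunit of PI3 kinase, was at 21.9, 14.2, 15.3, 16.2 and 19.6 FPKM against 146.1, 69.1 and 73.2 (-2.46 ± 0.29, adjusted p = 0.00248). These 3 passed whichever library was left out. The member that did not pass was GAS6 (adjusted p = 0.0866), a ligand of TAM receptors named after its values were seen.

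All 6 channel, transporter and membrane genes and all 5 lipid and lysosomal genes were called lower, beside 76 of 83 of the whole lower list. CACNA2D2, a calcium channel subunit, was at 1.78, 1.78, 1.48, 0.837 and 1.92 FPKM against 13.5, 12.7 and 14.4, with little spread in either group (-3.09 ± 0.26, adjusted p = 8.62e-04). The water channel AQP1 was at 8.43, 21.9, 4.55, 27.4 and 19.6 FPKM against 180.4, 101.4 and 242.1 (-3.41 ± 0.54, adjusted p = 0.00962). P10 and P8 were lowest for AQP1, and it did not pass without N3 (adjusted p = 0.0551). APOE, a lipid carrier, was at 82.7, 168.1, 123.5, 68.1 and 163.1 FPKM against 722.3, 435.3 and 969.5 (-2.54 ± 0.36, adjusted p = 0.00600). GM2A, which helps to degrade gangliosides, was at 23.7, 6.44, 36.3, 34.6 and 38.1 FPKM against 172.2, 171.8 and 179.4, with P9 the lowest (-2.64 ± 0.46, adjusted p = 0.0140), and did not pass without N3 (adjusted p = 0.0664). MGLL, a monoacylglycerol lipase, ranged from 2.82 to 7.35 FPKM against 19.7 to 40.7 (adjusted p = 0.00495). Of the 6 channel and membrane genes 2 passed without N3 and 4 without N2, and of the 5 lipid and lysosomal genes 2 passed without N3 and at least 4 without any other library.

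Of 8 kinase, exchange-factor and cytoskeletal genes 6 were called lower, with a median log2 fold change of -1.95. PRKD1, a kinase acting below protein kinase C, was at 2.88, 2.28, 0.820, 2.40 and 0.671 FPKM against 36.1, 24.5 and 17.8 (-3.66 ± 0.48, adjusted p = 0.00428), and no meningioma came near the normal values. KALRN, a guanine nucleotide exchange factor, ranged from 2.10 to 4.44 FPKM against 10.6 to 15.8 (adjusted p = 0.00864) and did not pass without N3 (adjusted p = 0.0551). FMN2 and MYO1E, named after their values were seen, did not pass (adjusted p = 0.396 and 0.0508). FMN2 was the 1 lower-list gene whose groups overlapped, with 15.7 FPKM in P10 and 10.3 in P13 against 30.2, 9.09 and 17.5 in the normal meninges. Without N3 1 of the 8 passed, without N1 3 and without N2 4.

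The greatest log2 fold change of the lower list was that of MYOC, myocilin, at 3.48, 2.17, 6.22, 3.31 and 0.836 FPKM in the meningiomas and 1042.4, 50.4 and 186.7 FPKM in the normal meninges (-7.05 ± 0.98, adjusted p = 0.00557). The normal libraries differed widely from each other, N1 being the highest, yet every formalin-fixed grade II meningioma lay below N2. Frozen P12 stood at 71.0 FPKM, within the normal range, and frozen P7 at 0 FPKM. The gene listed as ALP, an alkaline phosphatase by that name, was at 1.02, 0.721, 1.44, 1.05 and 0.797 FPKM against 3.02, 44.3 and 38.6 (-4.82 ± 0.70, adjusted p = 0.00649). Here N1 was the lowest normal library and stood close to the meningiomas. FAM198B (-3.32 ± 0.35, adjusted p = 0.00182) and the zinc finger gene ZFHX4 (-2.88 ± 0.41, adjusted p = 0.00574) were also called by edgeR's quasi-likelihood test. All 4 passed in every fit that left out 1 library.

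**Figure D3:**
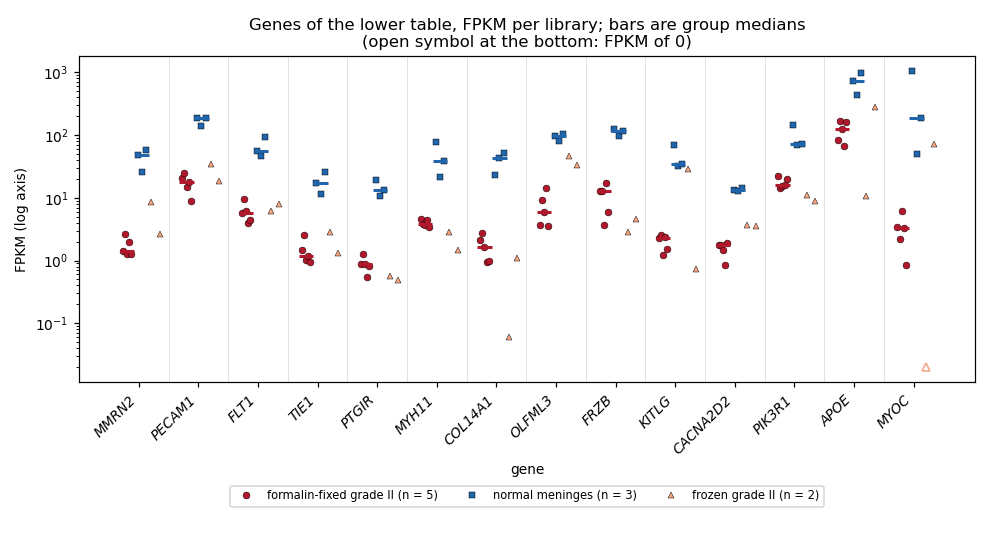
FPKM on a log axis for 14 genes of the lower list, 1 symbol per library, with medians of the formalin-fixed grade II and normal groups as bars and the 2 frozen grade II meningiomas beside them. In each of the 14 genes all 5 formalin-fixed meningiomas lie below all 3 normal libraries. For MMRN2, PECAM1, TIE1, OLFML3, KITLG, CACNA2D2, APOE and MYOC at least 1 frozen tumor lies above all 5 of them.

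The number of listed genes lying beyond the normal libraries differed more from tumor to tumor for the higher list than for the lower list. Of the 41 higher-list identifiers 35 (P9) to 39 (P8 and P11) exceeded all 3 normal libraries in a given tumor, and of the 83 lower-list identifiers 82 or 83 fell below all 3 in every tumor. The greatest SD of log2 CPM among the meningiomas was found in FOSB (3.34), CTSE (2.53), BMPR1B (2.50), STXBP6 (2.38) and CHGA (2.08), and none of these 5 was called. FOSB and CHGA were high in P10 and P13, CTSE was highest in P9 and STXBP6 in P11. BMPR1B lay above all normal libraries in 4 of the 5 tumors and below them in P11. Over the log2 CPM of all 13666 genes, the mean Euclidean distance was 123.2 between pairs of the 5 meningiomas, 85.3 between pairs of normal libraries and 140.1 between a meningioma and a normal library. P11, the library with the fewest fragments, was the farthest from the other 4 meningiomas (mean 136.2) and P13 the nearest (113.9).

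**Figure D4:**
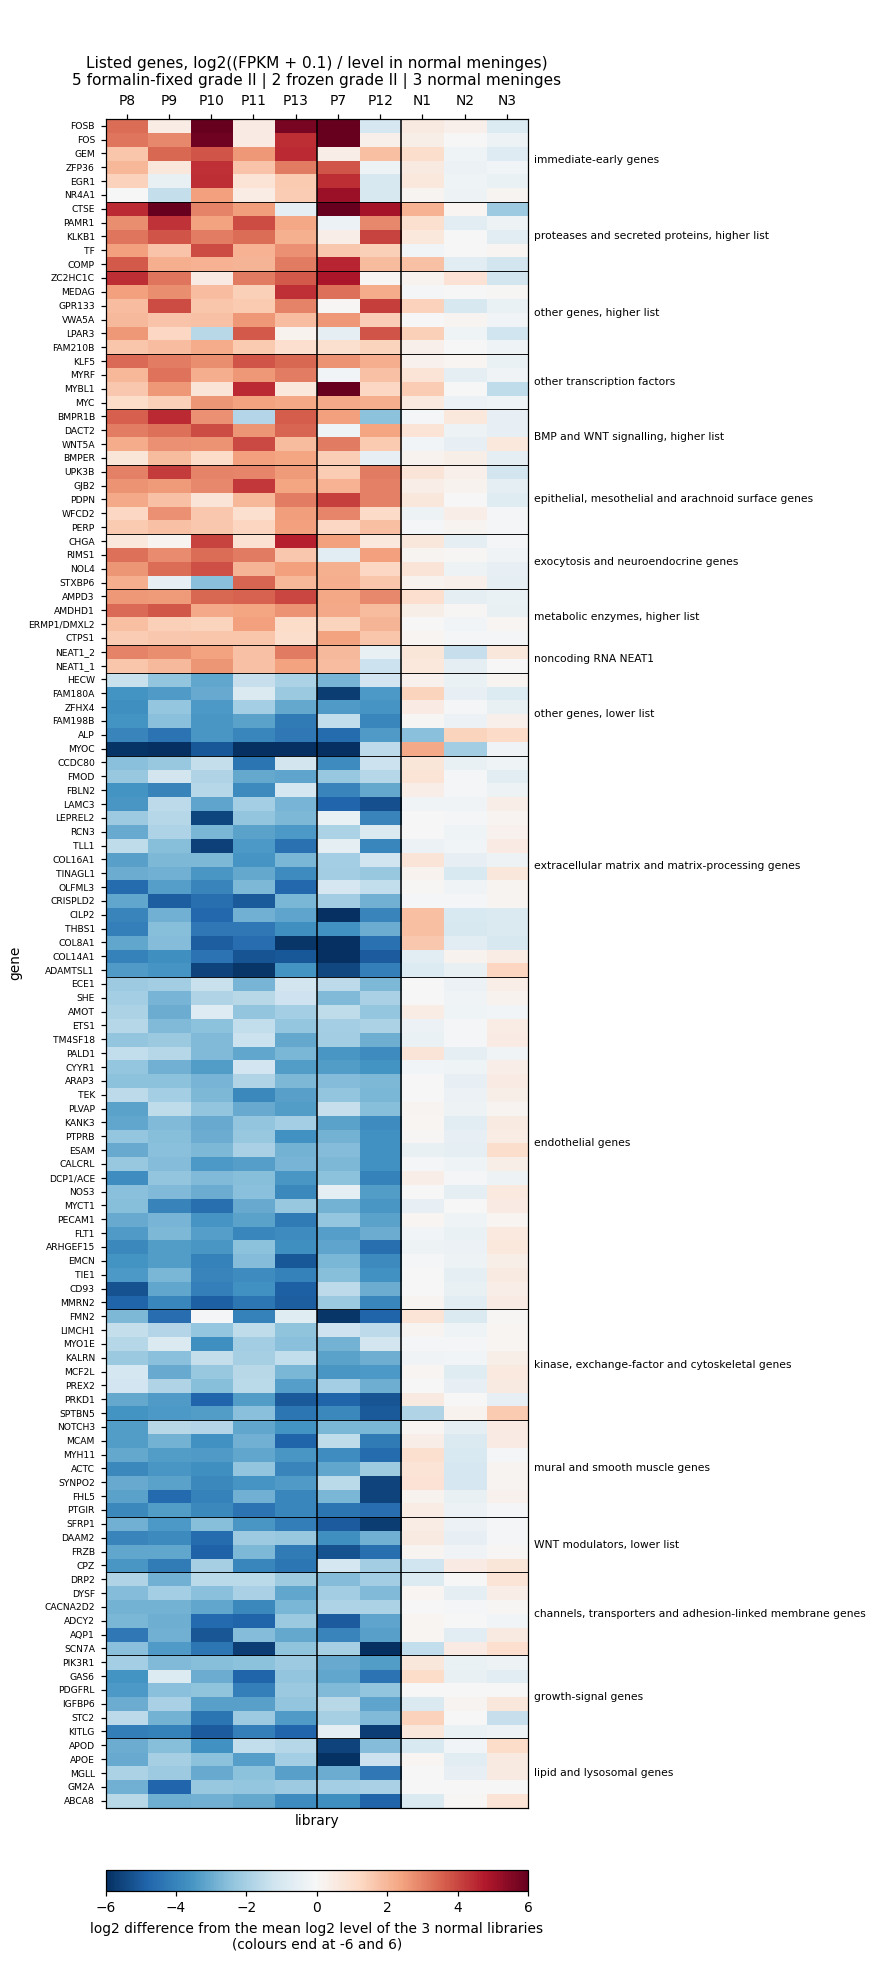
Rows are 122 of the identifiers with a symbol, grouped by function, and columns are the 5 formalin-fixed grade II, 2 frozen grade II and 3 normal libraries. Colour is log2(FPKM + 0.1) minus its mean over the normal libraries. The endothelial and mural rows are blue in every tumor. The immediate-early rows are darkest in P10 and P7, except GEM, which is darkest in P13.

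The question whether grade set these tumors apart was addressed against the 4 formalin-fixed grade I meningiomas, which share fixation and extraction with them. In a fit of 14 libraries in 4 groups, 0 of 14262 genes were called (0%) with edgeR's quasi-likelihood test, and 634 had an unadjusted p under 0.05 (4.45%). DESeq2 called 4 genes, none with a symbol. Among the listed genes 4 of 41 higher-list and 7 of 83 lower-list identifiers had an unadjusted p under 0.05, and none passed the adjustment. ZFHX4 stood at 1.27, 3.42, 1.5, 4.10 and 1.97 FPKM in grade II and 4.21 to 13.8 FPKM in grade I, the smallest of these p (log2 difference -1.68 ± 0.40, adjusted p = 1.00). WNT5A ranged from 27.4 to 114.1 FPKM in grade II and from 12.2 to 30.0 FPKM in grade I (1.46 ± 0.46, adjusted p = 1.00). No endothelial gene had an unadjusted p under 0.05, and the median log2 difference of the 24 was -0.37. A missing call does not show that the grades were alike, and the tumors of each grade varied among themselves.

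The comparison with the frozen grade II tumors P7 and P12 set fixed against frozen tissue inside 1 grade. Extraction changed with preservation here too, and the frozen group held only 2 dogs, so preservation, extraction and dog cannot be told apart. Of 14262 genes 357 were called (2.50%), 117 higher and 240 lower in the formalin-fixed tumors. The count was 0 in a fit of these 2 groups only (13059 genes tested), 0 without P7, 12 without P8, 33 without P13, 112 without P11, 153 without P10, 206 without P12 and 727 without P9. Of the 124 listed identifiers 1 was called, and 10 with DESeq2. OLFML3 stood at 45.7 FPKM in P7 and 33.2 FPKM in P12, between the formalin-fixed tumors (3.51 to 14.2 FPKM) and the normal meninges (80.4 to 104.2 FPKM), with a log2 difference of -2.46 ± 0.55 (adjusted p = 0.0411). It did not pass in the fit of the 2 groups (adjusted p = 0.126) or without P7, P8, P10, P12 or P13 (highest adjusted p 0.135). DACT2 had a log2 difference of 2.31 ± 0.61 (adjusted p = 0.0591) and stood at 0.797 and 5.49 FPKM in the frozen tumors, 1 of them within the normal range. KITLG stood at 29.0 and 0.745 FPKM, P7 near the normal meninges and P12 below the formalin-fixed tumors (-2.92 ± 0.88, adjusted p = 0.0801). The 2 frozen tumors were as far from each other (distance 149.1) as from the formalin-fixed ones (mean 153.2).

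The frozen tumors and the formalin-fixed tumors were set against the same normal meninges, so their values are given side by side only. For the endothelial genes the median log2 fold change was -2.77 in the formalin-fixed tumors and -3.03 in the frozen ones, the latter from the fit of 14 libraries, and summed FPKM was 219.6 in P7 and 120.6 in P12. For the mural genes the medians were -3.59 and -2.82, and for the matrix genes -3.23 and -2.37. Other lists fell further in the frozen tumors. The medians were -3.31 and -4.07 for WNT modulators, -2.57 and -3.56 for lipid and lysosomal genes, and -1.95 and -3.34 for the kinase list. Over the whole lower list they were -2.88 and -3.12, and over the whole higher list 2.81 and 2.19. The study chose these lists on meningiomas that include P7 and P12. For the 2 NEAT1 identifiers the medians were 2.21 and 0.90, and for the 4 higher-list genes of WNT and BMP signalling 3.03 and 1.23. None of the NEAT1, WNT or BMP differences between fixed and frozen tumors passed.

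**Figure D5:**
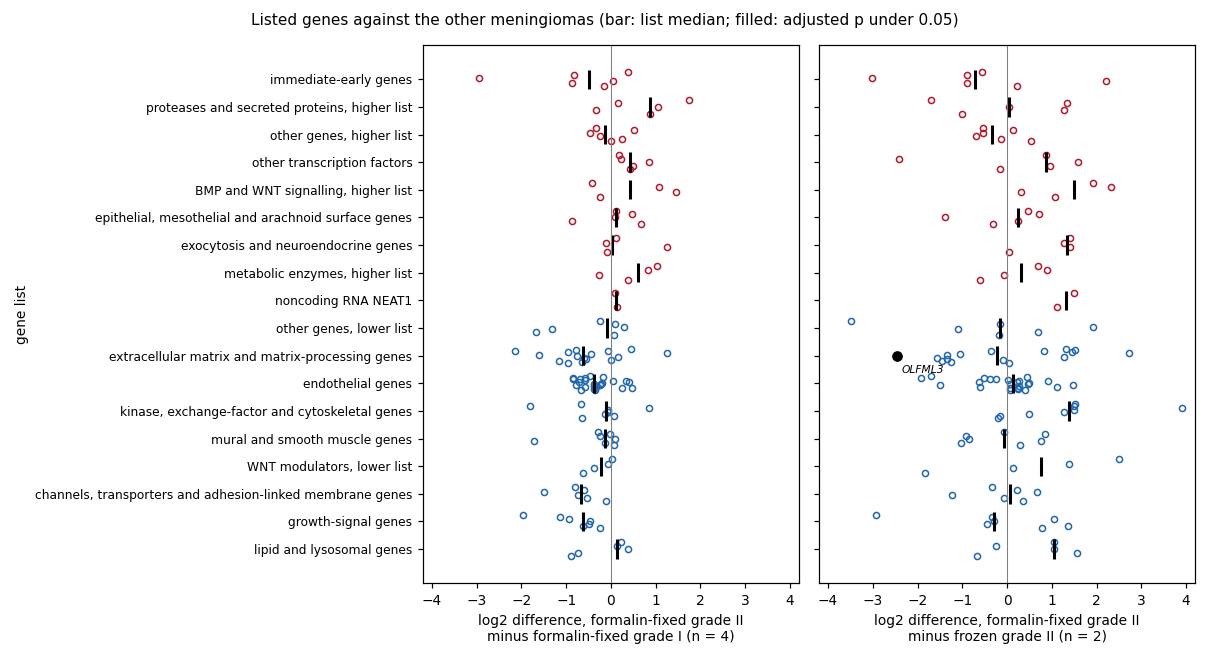
Each circle is 1 listed gene, with its log2 difference between the formalin-fixed grade II meningiomas and the 4 grade I meningiomas (left) or the 2 frozen grade II meningiomas (right), by gene list, and bars are list medians. OLFML3, at -2.46 against the frozen tumors, is the filled circle, the 1 listed gene with an adjusted p under 0.05, and the right panel is the wider of the pair.

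Most calls against the normal meninges lay outside the 2 lists, 758 of 862, with 262 higher and 496 lower, and have no symbol here. Of these ENSCAFG00000009190 had the smallest p among the higher genes, at 118.6, 144.0, 125.8, 114.0 and 137.1 FPKM against 44.4, 40.8 and 35.2 (log2 fold change 1.68 ± 0.19, adjusted p = 0.00215 with edgeR's quasi-likelihood test). ENSCAFG00000015734 followed, at 50.6, 44.5, 50.6, 52.8 and 51.2 FPKM against 21.5, 17.9 and 20.5 (log2 fold change 1.33 ± 0.17, adjusted p = 0.00427 with edgeR's quasi-likelihood test). Among the lower genes ENSCAFG00000013756 came first, at 2.40, 1.94, 2.2, 1.38 and 1.74 FPKM against 36.6, 34.4 and 54.5 (log2 fold change -4.39 ± 0.25, adjusted p = 2.26e-04 with edgeR's quasi-likelihood test). ENSCAFG00000007891 was at 0.278, 0.135, 0.219, 0.360 and 0.243 FPKM against 17.1, 11.4 and 8.97 (log2 fold change -5.70 ± 0.34, adjusted p = 2.26e-04 with edgeR's quasi-likelihood test). The groups lay apart in each of these 4 identifiers, and the meningiomas were close to each other, as their choice by smallest p favours. Frozen P7 and P12 stood at 21.5 and 90.5 FPKM for ENSCAFG00000009190, P7 below every normal library, and at 27.7 and 25.2 FPKM for ENSCAFG00000015734, nearer to the normal libraries than to the formalin-fixed tumors. They stood at 7.57 and 2.81 FPKM for ENSCAFG00000013756, and at 0.214 and 0 FPKM for ENSCAFG00000007891. Of all 862 called genes 842 had the 5 meningiomas wholly beyond the 3 normal libraries in FPKM, 278 above and 564 below. Over all tested genes 8.28% lay above and 10.5% below, and a call itself favours such separation.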

How the data were processed

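RNAseq reads were trimmed by the authors with cutadapt 1.8, mapped to canFam3 with TopHat2 2.0.13 and quantified with Cuffdiff 2.2.1, per the submitters' processing notes. RNA had been depleted of ribosomal RNA and made into stranded libraries, per the labels. The deposited table of 24580 genes in 16 libraries holds the authors' estimated counts of fragments per gene, a signal for which the authors divided these by the size factor of each library, and the authors' FPKM, scaled by transcript length and depth. Library totals limit the precision of low genes. The signal gave size factors for an alternative only, 1 value with a failed estimate was kept, and 0.342% of the estimated counts were not whole and were rounded.

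Library identity came from exact matches of 12 FPKM values, and by rank of depth all 14 paired libraries held the place of their sample in the study's mapped reads. The other 2 libraries were not used. Genes that reached 10 fragments in 3 or more of the 8 libraries were tested with edgeR 4.0.16 (R 4.3.3), quasi-likelihood test, TMM normalization and Benjamini-Hochberg adjustment. Grade I and frozen grade II were contrasts in a fit of 14 libraries in 4 groups. SE are log2 fold changes over the root of the F statistic. Alternatives were DESeq2 1.42.0, other size factors and filters, limma 3.58.1 on log2(FPKM + 1) and log2(FPKM + 0.1) of genes with mean FPKM of at least 1, a test against a fold of 2, a robust fit, all 14 libraries, the frozen tumors added, a gene length trend removed, and each library left out. Scripts were tested on simulated counts of 13666 genes, 200 of them changed by a log2 fold of 2.5. Of these edgeR recovered 79.0% and called 10 unchanged genes, DESeq2 91.0% and 60, and limma 80.5% and 12. Distances used log2 CPM with a prior count of 2, in Python 3.11.15.

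The genes and lists were chosen with earlier results of these data known. Named genes are the 12 pairing genes, in each of 18 functional lists the 4 with the smallest p, the 5 with the largest SD among the meningiomas, those called against the other meningiomas, and by identifier the 2 with the smallest p in each direction without a symbol. Some genes of these lists are counted but not reported here by name. No sequence was read, since no canFam3 genome was used here.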

Additional observations from a re-analysis of the deposited data

Results flagged for a closer look

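Of 75 genes examined, 10 (13.3%) had 1 of the 5 formalin-fixed grade II meningiomas far from the others, by a gap to the nearest that took more than 0.71 of the whole range in FPKM. Chance flags about 1 in 20 such groups, and raw FPKM of few samples is skewed. The 75 genes include the 5 chosen for the largest SD among these tumors, FOSB and CTSE among them, so the shares are not strictly comparable. In each case it was the highest library that stood apart. P10 stood apart for EGR1 (285.7 FPKM, next 38.4), FOSB (222.8 FPKM, next 39.5) and CPZ (20.6 FPKM, next 7.40). P11 stood apart for GJB2 (883.8 FPKM, next 349.1), VWA5A (339.3 FPKM, next 213.2) and WNT5A (114.1 FPKM, next 48.9). P9 was highest for CTSE (381.7 FPKM, next 107.0) and UPK3B (46.2 FPKM, next 21.0), P13 for MEDAG (444.2 FPKM, next 143.4) and P8 for ABCA8, a lipid transporter (5.98 FPKM, next 2.52). OLFML3 differed directly between formalin-fixed and frozen grade II tumors by -2.46 on the log2 scale (adjusted p = 0.0411 with edgeR's quasi-likelihood test), lower in 5 of 5 fixed tumors than in either frozen one. The call was lost in the fit of the 2 groups and without P7, P8, P10, P12 or P13 (adjusted p 0.0691 to 0.135).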

How the results depend on the processing

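Against normal meninges 862 genes were called, 290 higher and 572 lower. DESeq2 called 1881 (905 higher, 976 lower), the test against a fold of 2 called 165 (13 and 152), the fit of 14 libraries 518 (127 and 391) and the meningiomas with frozen P7 and P12 added 479 (95 and 384). Each library left out in turn gave 135 to 988 calls, 11 to 356 higher and 124 to 633 lower, the lowest without N3. Other size factors, filters, limma, the robust fit and removal of the length trend gave 704 to 935 calls. Against grade I 0 genes were called, also in the fit of the 2 groups and with each of the 9 formalin-fixed tumor libraries left out, while DESeq2 called 4 (3 higher, 1 lower). Against frozen grade II 357 were called (117 and 240), DESeq2 called 1744 (869 and 875), the fit of the 2 groups called 0, and each library left out gave 0 to 727 calls, 0 to 234 higher and 0 to 493 lower. The cause of these differences was not tested. The fits of the 2 groups and those with a library left out also hold fewer samples. For 75 genes under 21 alternatives, 1398 of 1575 values kept direction and side of the threshold, 160 lost the call and 17 gained it, and none changed sign. The most calls were lost without N3 (31), in the test against a fold of 2 (27) and in the fit of 14 libraries (21). No paired analysis was possible because the groups share fewer than 2 replicate numbers with each other in the comparison with normal meninges, and equal numbers name different dogs. With 3 normal libraries, and 2138741 fragments in the shallowest tumor, small changes of low genes were not detectable.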
